A study of Caenorhabditis elegans with 48 samples.

Results

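The proteasome subunit genes of *Caenorhabditis elegans* were taken as all genes named *pas-*, *pbs-*, *rpt-* or *rpn-* followed by a number, a rule that uses no measured value. It gave 33 of the 19885 genes quantified. The proteasome is the protease that degrades ubiquitin-tagged proteins. Its core, the 20S particle, is a barrel of outer α rings (*pas* genes) and inner β rings (*pbs* genes) with the proteolytic sites inside. The 19S cap consists of a base, whose ATPases (*rpt* genes) unfold the substrate and thread it into the core, and a lid (most *rpn* genes) that removes ubiquitin chains. Eukaryotic cells commonly control these genes together, in worms through the transcription factor SKN-1A, which raises their expression when proteasome activity is short. In this experiment the proteasome is also part of the tool: the plant F-box protein TIR1 joins the worm's own SCF ubiquitin ligase, and an auxin analog such as K-NAA leads it to a degron-tagged protein, which the proteasome then destroys.

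All worms were adults of the strain JDW259. It carries a transgene expressing TIR1 and the blue fluorescent protein mTagBFP2 from the *eft-3* promoter, and an AID* degron with TEV and 3xFLAG sequences on *nhr-23*, the worm homolog of the clock gene *Ror*. Mock worms and worms on K-NAA (0.4 mM in the labels, although the Methods state another concentration) therefore shared the strain, the transgene and the degron, and both were grown with FUdR, which stops offspring, on temperature cycles followed by constant temperature. Whole bodies were collected every 2 h from circadian time (CT) 1 to CT23, from 2 culture plates at each time point of each condition, giving 24 mock and 24 K-NAA libraries of polyA RNA. The labels put the move to K-NAA plates 12 h before sampling, whereas the Methods give 1 transfer for all worms, in which case exposure lengthens along the day and the effects of the 2 cannot be told apart. No library came from worms with K-NAA and without the degron, so an effect of K-NAA itself and an effect of NHR-23 loss cannot be told apart either.

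Values were TPM, transcript abundances scaled for length and to the same total in every library, which hold no sequencing depth, so precision was read from the plates alone. Between 15165 and 16095 genes were above 0 in a library, the plates of a time point correlated at 0.979 to 0.989 on the log2 scale, and no libraries were identical. *nhr-23* mRNA had a median of 33.9 TPM (mock) and 31.8 TPM (K-NAA), but the degron acts on the protein, so the mRNA tells nothing of the depletion. Markers of intestine, muscle, hypodermis, neurons, germline and oocytes were all present, as whole worms require. In whole-worm RNA, fewer cells of a type and less RNA per cell cannot be told apart.

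All 33 subunit mRNAs were detected in every library, and 32 of them lay within a 4.28-fold range of mean TPM. TPM values are scaled by transcript length, so that levels of different genes can be set side by side. Coding lengths were 606 to 852 nt in the core and 750 to 2943 nt in the cap. Whether a length bias remained after the scaling was not tested. The 14 genes of the 20S core had a median of 292.0 TPM. The 18 genes of the 19S cap other than *rpn-6.2* had a median of 201.2 TPM, and 13 of them lay below the lowest core gene, *pbs-2*. Within the core, whose subunits are assembled in equal numbers, mRNA levels were not equal, with means from 228 TPM (*pbs-2*) to 486 TPM (*pbs-1*).

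Among the α subunits, *pas-5* was highest with 405 TPM and *pas-3* next with 399 TPM, followed by *pas-1* (339 TPM), *pas-4* (309 TPM), *pas-2* (299 TPM), *pas-7* (275 TPM) and *pas-6* (269 TPM), all as means over 48 libraries. Among the β subunits, the catalytic *pbs-1* was highest of all members with 486 TPM. The non-catalytic *pbs-7* (325 TPM), *pbs-3* (285 TPM), *pbs-4* (258 TPM) and *pbs-6* (248.9 TPM) stood above the other catalytic subunits, *pbs-5* (248.5 TPM) and *pbs-2* (228 TPM). The ATPases ran from *rpt-1* (263 TPM) through *rpt-3* (225 TPM), *rpt-5* (216 TPM), *rpt-2* (209 TPM) and *rpt-4* (191 TPM) to *rpt-6* (118.7 TPM).

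Of the other base subunits, the ubiquitin receptors *rpn-13* and *rpn-10* had 161 and 155 TPM, and the large scaffolds *rpn-1* and *rpn-2* had 140 and 139 TPM. In the lid, the scaffold subunits *rpn-7* (319 TPM) and *rpn-9* (290 TPM) led, before *rpn-8* (240 TPM), the partner of the deubiquitinase *rpn-11* (229 TPM), and *rpn-3* (224 TPM), *rpn-5* (194 TPM), *rpn-12* (174.5 TPM) and *rpn-6.1* (114 TPM). The second gene for the RPN-6 subunit, *rpn-6.2*, had 12.0 TPM, and *rpn-6.1* was 9.44-fold above it. The genes are paralogs on chromosome III, and reads that both could have given would have been shared out by the quantification.

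Neighbours in this order were mostly not separated. Of 32 pairs of neighbours, the ranges over 48 libraries overlapped in 31, and the exception was *rpn-6.1*, whose lowest library (89.2 TPM) lay above the highest of *rpn-6.2* (16.06 TPM). Within single libraries some orders were steadier: *pbs-1* exceeded *pas-5* in 48 of 48 libraries, and *pas-3* exceeded *pas-1* in 48 of 48.

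**Figure D1:**
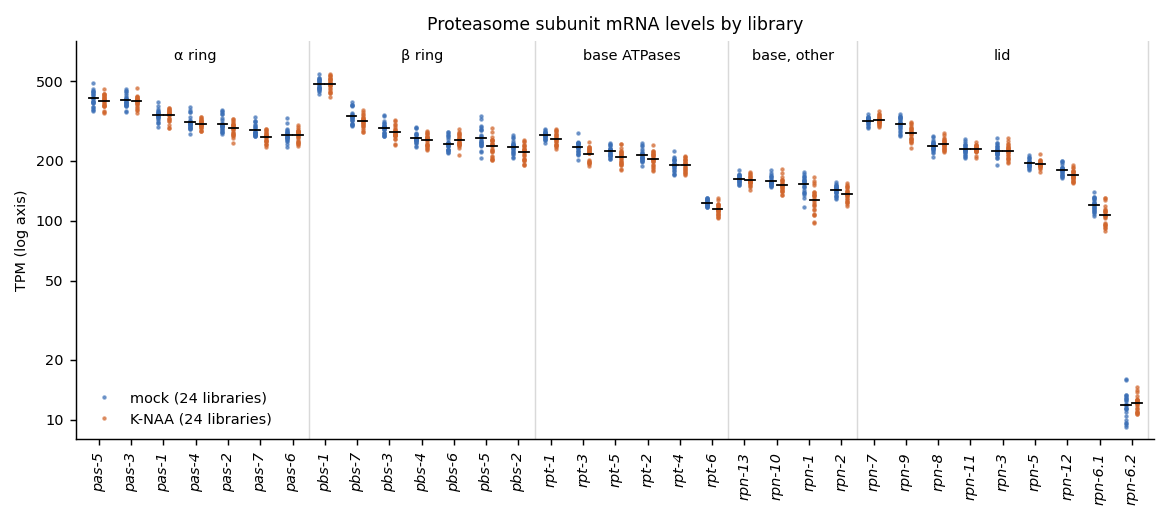
Level of each of the 33 subunit mRNAs in TPM on a log axis, with 1 point per library (24 mock, 24 K-NAA) and black bars for group means, ordered by role in the particle and then by mean. Nearly all genes lie between 100 and 500 TPM, *pbs-1* is highest (mean 486 TPM), and *rpn-6.2* (mean 12.0 TPM) stands alone below the rest.

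In the annotation of the genome build WBcel235, all 33 genes were found, and they lay on autosomes: 10 on chromosome I, 7 on II, 8 on III, 3 on IV, 5 on V and 0 on X, which holds 13.7% of coding genes. The highest member, *pbs-1*, lies on chromosome IV from 1708814 to 1709745 on the minus strand. The lowest, *rpn-6.2*, lies on chromosome III from 8999817 to 9001999 on the minus strand. Coding lengths ran from 606 nt (*pbs-4*) to 2943 nt (*rpn-1*), and 25 genes had a single annotated transcript. The spans of 10 genes overlapped another coding gene on either strand, among them *pas-7*, *pbs-3*, *pbs-7* and *rpt-6*, described below. Introns were included, and whether reads were shared there was not tested.

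The mRNAs varied little between libraries. The standard deviation (SD) of log2(TPM + 0.5) over the 48 libraries had a median of 0.0988 for the 32 subunit genes between 100 and 500 TPM, against 0.116 for all 1239 genes in that range of levels. The most variable members were *rpn-1* (SD 0.22), *pbs-5* (SD 0.17) and *rpn-6.2* (SD 0.17). The least variable were the lid genes *rpn-5* (SD 0.061) and *rpn-7* (SD 0.062) and the receptor *rpn-13* (SD 0.069).

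The lid gene *rpn-5* ran from 180 to 213 TPM in mock with a median of 193 TPM, and from 175 to 217 TPM in K-NAA with a median of 193 TPM. Its libraries covered the same narrow band in both conditions. The lid gene *rpn-7* ran from 291 to 342 TPM in mock (median 319 TPM) and from 295 to 356 TPM in K-NAA (median 320 TPM), again with wide overlap. The receptor *rpn-13* ran from 151 to 179 TPM in mock (median 163 TPM) and from 143 to 175 TPM in K-NAA (median 157 TPM). None of these 3 genes passed the test between conditions that follows.

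Most members moved up and down together. Over the 48 libraries, 496 of 528 pairs of members had a positive Pearson correlation, with a median of 0.56. This is a description over points that share a library and its TPM total. The same correlations were not computed for other genes, so whether they were particular to the subunits was not tested. The closest pair was *pas-2* with *pbs-7* (r = 0.91), an α and a β subunit. In the base, the scaffolds *rpn-1* and *rpn-2* were close (r = 0.89). Against the median of all other members, *pas-2* (r = 0.89), *rpn-9* (r = 0.87) and *rpt-5* (r = 0.86) followed best.

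A few members followed the others less. The lid genes *rpn-11* (r = 0.40), *rpn-8* (r = 0.46) and *rpn-5* (r = 0.48), the β subunit *pbs-6* (r = 0.42) and the catalytic *pbs-1* (r = 0.50) had the lowest positive values. The lid genes *rpn-3* and *rpn-8* were each other's closest members (r = 0.77). The rare *rpn-6.2* ran against the rest (r = -0.40).

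The summed level of the 33 mRNAs showed the shared movement and its limits. The sum ran from 7403 to 8980 TPM in mock with a median of 8127 TPM, and from 7165 to 8591 TPM in K-NAA with a median of 7945 TPM. These ranges overlapped widely. By plate number, the medians were 8303 TPM for mock replicate 1, 8073 TPM for mock replicate 2, 8013 TPM for K-NAA replicate 1 and 7412 TPM for K-NAA replicate 2. K-NAA replicate 2 thus had the lowest median, although its libraries of CT15, CT17 and CT21 had sums of 8225, 8065 and 8189 TPM.

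**Figure D2:**
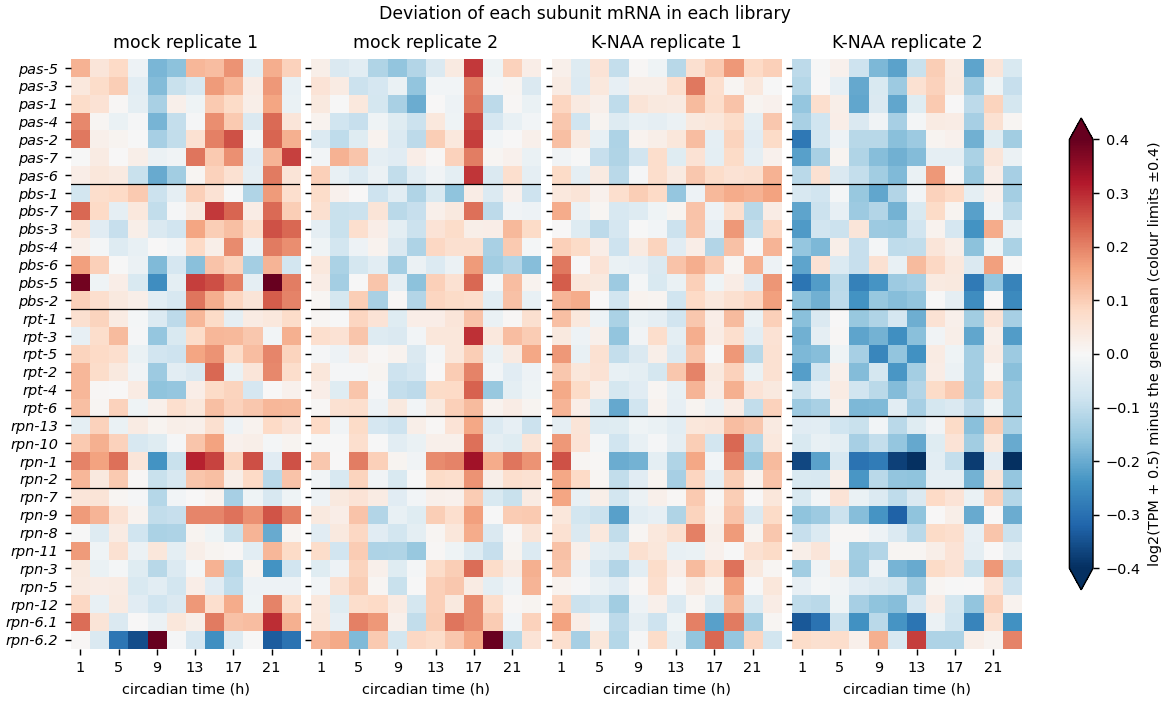
Heat map of log2(TPM + 0.5) minus each gene's mean over 48 libraries (colour, limits ±0.4), with genes by role in lines and circadian time (h) in columns, and a panel for each condition and replicate number. Most genes of a column share a colour, mock replicate 2 is highest at CT17, and K-NAA replicate 2 is below the mean at CT1, CT3, CT7 to CT13, CT19 and CT23 for at least 27 of 33 genes.

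Worms on K-NAA were compared with mock worms at the same time points to ask whether subunit mRNA levels differed between the conditions. Of the 33 mRNAs, 13 fell on K-NAA and 0 rose, by 4.95 to 16.39%. Over all 13813 genes tested, 19.6% fell and 9.6% rose (29.2% in either direction) at an adjusted p under 0.05 (limma on log2(TPM + 0.5) with the time point as a factor, Benjamini-Hochberg over all genes). The members' share of falling genes was 39.4%. Their median difference was -0.052 on the log2 scale, against -0.020 for all genes, and 27 of 33 estimates were negative, against 56.4% of all genes. Fewer fell after other scalings. Median ratio rescaling left 6 lower (*rpn-1*, *rpn-6.1*, *rpn-9*, *rpt-6*, *pas-7* and *rpt-3*) and made *rpn-7*, *rpn-8* and *pbs-6* higher, and quantile normalization left 8 lower with *pbs-6* higher. The shares of members lower and higher were then 18.2% and 9.09% after median ratio rescaling, against 14.6% and 15.3% of all genes, and 24.2% and 3.03% after quantile normalization, against 14.8% and 14.5% of all genes.

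The decrease was largest for *rpn-1*, the base scaffold that docks the ubiquitin-like domains of shuttle proteins (chromosome IV, 6906420 to 6909913, minus strand). It ran from 117 to 175 TPM in mock with a median of 156 TPM, and from 97.9 to 165 TPM in K-NAA with a median of 128 TPM. The groups overlapped, with 7 of 24 K-NAA libraries below the lowest mock library and 22 of 24 below the mock median. It fell by 0.26 on the log2 scale (standard error 0.050, adjusted p = 1.0e-04 from limma) and was lower at 12 of 12 time points.

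The lid gene *rpn-6.1*, whose product links the lid to the core (chromosome III, 6959110 to 6962001, minus strand), ran from 106 to 139 TPM in mock (median 121 TPM) and from 89.2 to 130 TPM in K-NAA (median 106 TPM). Here 11 K-NAA libraries lay below the lowest mock library. It fell by 0.18 (standard error 0.039, adjusted p = 5.1e-04 from limma), also at 12 of 12 time points. Its paralog *rpn-6.2* ran from 9.24 to 16.06 TPM in mock (median 11.9 TPM) and from 10.7 to 14.6 TPM in K-NAA (median 12.1 TPM). The K-NAA range of *rpn-6.2* lay within the mock range, and its difference of 0.032 (standard error 0.049) did not pass (adjusted p = 0.67 from limma).

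The lid gene *rpn-9* (chromosome II, 11237447 to 11238919, minus strand) had the smallest p of all members. It ran from 266 to 344 TPM in mock (median 310 TPM) and from 231 to 313 TPM in K-NAA (median 273 TPM), and 23 of 24 K-NAA libraries were below the mock median. It fell by 0.16 (standard error 0.028, adjusted p = 2.3e-05 from limma) and was lower at 12 of 12 time points. The ATPase *rpt-6* (chromosome III, 12370456 to 12372607, plus strand) had a narrow mock range of 117 to 130 TPM (median 123 TPM) and ran from 103 to 130 TPM in K-NAA (median 114 TPM). Of its K-NAA libraries, 16 lay below the lowest mock library. It fell by 0.11 (standard error 0.022, adjusted p = 9.8e-05 from limma), at 12 of 12 time points.

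The α subunit *pas-7* (chromosome II, 10098782 to 10099854, minus strand) ran from 266 to 331 TPM in mock (median 278 TPM) and from 236 to 289 TPM in K-NAA (median 267 TPM). It fell by 0.11 (adjusted p = 8.2e-04 from limma), and 11 of its K-NAA libraries were below all mock libraries. The ATPase *rpt-3* ran from 201 to 275 TPM in mock (median 234 TPM) and from 189 to 248 TPM in K-NAA (median 222 TPM). It fell by 0.11 (adjusted p = 0.0029 from limma), with 8 K-NAA libraries below the lowest mock library. The lid gene *rpn-12*, which in worms also acts in hermaphrodite sex determination, ran from 165 to 200 TPM in mock (median 179 TPM) and from 155 to 191 TPM in K-NAA (median 168 TPM). It fell by 0.088 (adjusted p = 0.0044 from limma) and was lower at 12 of 12 time points.

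The catalytic β subunits differed in their values. The subunit of the chymotrypsin-like site, *pbs-5*, ran from 207 to 335 TPM in mock (median 252 TPM) and from 202 to 292 TPM in K-NAA (median 238 TPM). It fell by 0.14 (standard error 0.043, adjusted p = 0.011 from limma). The subunit of the trypsin-like site, *pbs-2*, ran from 208 to 269 TPM in mock (median 237 TPM) and from 190 to 254 TPM in K-NAA (median 224 TPM).

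The fall of *pbs-2* was 0.094 (standard error 0.033, adjusted p = 0.028 from limma), near the threshold, and it was lost without the K-NAA library of CT23 replicate 2 (adjusted p = 0.050). The subunit of the caspase-like site, *pbs-1*, ran from 434 to 546 TPM in mock (median 485 TPM) and from 420 to 542 TPM in K-NAA (median 491 TPM), with wide overlap. Its difference was 0.011 (standard error 0.030, adjusted p = 0.82 from limma). Whether the 3 catalytic genes differed from each other in this response was not tested.

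Besides these, *rpt-5* (fall of 0.094, adjusted p = 0.013), *pbs-3* (0.080, adjusted p = 0.023), *pbs-7* (0.084, adjusted p = 0.029) and the scaffold *rpn-2* (0.073, adjusted p = 0.038, all from limma) passed with smaller margins. The call for *rpn-2* was lost when any of 19 of the 48 single libraries was left out, with a highest adjusted p of 0.065 from limma. By role, 1 of 7 α subunits fell (14.3%), 4 of 7 β subunits (57.1%) and 3 of 6 ATPases (50%). Of the other base subunits 2 of 4 fell (50%) and of the lid subunits 3 of 9 (33.3%), against 19.6% of all genes. In replicate 1 alone the counts were 0, 0, 1, 0 and 1, and in replicate 2 alone 2, 2, 5, 3 and 3. Differences between the roles were not tested. The lid held both the smallest p (*rpn-9*) and genes with estimates above 0, such as *rpn-8* (0.032, adjusted p = 0.37 from limma) and *rpn-7* (0.013, adjusted p = 0.69 from limma). The β ring was mixed too. Its *pbs-6* had the highest estimate of all members (0.061, adjusted p = 0.11 from limma), and *pbs-1* was also above 0.

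The deubiquitinase *rpn-11* and the ubiquitin receptor *rpn-10* did not pass. *rpn-11* ran from 206 to 258 TPM in mock (median 228 TPM) and from 207 to 248 TPM in K-NAA (median 230 TPM), a difference of 0.0077 (standard error 0.021, adjusted p = 0.82 from limma). Its conditions overlapped fully. The level of *rpn-10*, which in worms also acts in sex determination, ran from 148 to 180 TPM in mock (median 156 TPM) and from 134 to 182 TPM in K-NAA (median 150 TPM). Its difference was -0.063 (standard error 0.028, adjusted p = 0.087 from limma). The most abundant α subunits, *pas-5* (-0.035, adjusted p = 0.34 from limma) and *pas-3* (-0.017, adjusted p = 0.66 from limma), did not pass either. The mock and K-NAA ranges of *pas-5*, 356 to 492 and 348 to 456 TPM, overlapped, as did those of *pas-3*, 353 to 459 and 345 to 461 TPM.

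**Figure D3:**
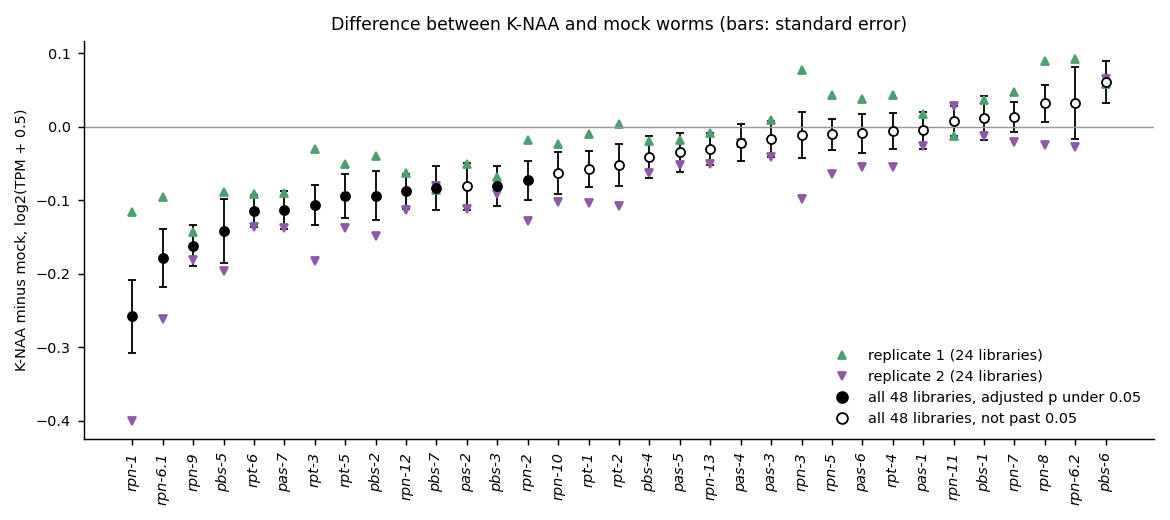
Difference between K-NAA and mock worms for each subunit mRNA on the log2(TPM + 0.5) scale (circles with standard error, filled where the adjusted p was under 0.05), and the same difference within replicate 1 (upward triangles) and replicate 2 (downward triangles). The 13 filled circles all lie below 0, and for *rpn-1* the replicates stand at -0.12 and -0.40.

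The fall was not equally large on both sets of plates. Within replicate 1 alone, 2 members fell, *rpn-9* and *rpt-6* (7.56% of all genes fell), and 0 rose (10.7% of all genes). Within replicate 2 alone, 15 members fell (22.2% of all genes) and 0 rose (5.21% of all genes). The median difference of the members was -0.018 in replicate 1 and -0.092 in replicate 2, and that of all genes 0.011 and -0.056. The median change from replicate 1 to replicate 2 in this difference was -0.068 for the members and -0.060 for all genes, a shift of similar size across the whole table. Only *rpn-9* and *rpt-6* therefore fell in each replicate by itself: *rpn-9* by 0.14 and 0.18 (adjusted p = 0.023 and 0.0018) and *rpt-6* by 0.092 and 0.14 (adjusted p = 0.044 and 0.0051, all from limma).

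A test of the difference between the replicates, chosen after the data had been seen, called 4 of 33 members, where 15.5% of all genes were called. For *rpn-1*, the K-NAA medians were 138 TPM in replicate 1 and 113 TPM in replicate 2, against mock medians of 157 and 155 TPM. Its K-NAA effect was -0.12 in replicate 1 and -0.40 in replicate 2 (adjusted p of the difference = 0.012 from limma). The other members called were *rpt-3*, *rpn-3* and *rpn-5*. With median ratio rescaling 0 of 33 members were called.

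Plate numbers were also compared within a condition. In mock, 0 of 33 members differed between replicate 2 and replicate 1 at an adjusted p under 0.05 from limma, where 15.9% of all genes did, and 6 members were under an unadjusted 0.05, against 28.8% of all genes. The count at an adjusted p under 0.05 was 12 (36.4% of members) after median ratio rescaling, against 6.83% of all genes, and 3 with a mean-variance trend in limma, against 16.9% of all genes. In K-NAA, 0 of 33 members and 0% of all genes passed. At an unadjusted p under 0.05, 21 members (63.6%) differed between the K-NAA plates, against 19% of all genes, with a median member difference of -0.091. The K-NAA libraries of replicate 2 in which the median member lay lowest were those of CT11 (-0.16), CT1 (-0.14), CT19 (-0.14) and CT7 (-0.13), each relative to the members' means.

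Other transcripts moved along with the condition. Of 12 heat shock response genes tested, 11 fell on K-NAA and 0 rose, with a median difference of -1.48. The small heat shock gene *hsp-16.41* ran from 4.99 to 37.5 TPM in mock (median 12.98 TPM) and from 0 to 1.34 TPM in K-NAA (median 0.652 TPM), without overlap, a fall of 3.71 (adjusted p = 4.8e-21 from limma). The constitutive chaperone *hsp-1*, chosen after its values were seen, fell by 0.28 (adjusted p = 5.2e-06 from limma). The summed level of the list was 2745 to 3918 TPM in mock libraries and 2199 to 3095 TPM in those of K-NAA. Of 8 subunits of the CCT chaperonin, which folds actin and tubulin, 7 fell (median -0.19), and *cct-7* fell by 0.30 (adjusted p = 4.4e-06 from limma). By replicate, 2 CCT genes fell in replicate 1 alone and 8 in replicate 2 alone (medians -0.096 and -0.27). For the heat shock genes the counts were 9 and 10 (medians -1.35 and -1.39). The part of the heat shock response in the subunits' fall was not tested.

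Markers of tissues were read beside all genes, of which 19.6% fell and 9.6% rose. Of 15 oocyte and eggshell genes 8 fell and 0 rose, with sums of 13780 to 16460 TPM (mock) and 13600 to 15180 TPM (K-NAA). Of 15 germline genes 6 fell and 1 rose, with sums of 1857 to 2250 and 1849 to 2161 TPM. By replicate, of the oocyte genes 1 fell in replicate 1 alone and 11 in replicate 2 alone (medians -0.012 and -0.16), and of the germline genes 0 and 9 (medians 0.022 and -0.13). Of 12 intestinal genes 1 fell and 5 rose, with sums of 11980 to 16790 and 16300 to 19630 TPM, and of 10 hypodermal genes 0 fell and 5 rose. Of 12 muscle genes 0 fell and 2 rose, of 14 neuronal genes 2 fell and 1 rose, and of 10 embryonic genes 1 fell and 0 rose. Of 16 sperm genes 0 passed the test, with a median difference of 0.24. No list summed to 0 in a library. The part of tissue composition in the subunits' fall was not tested.

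The rest of the ubiquitin pathway was read from 4 lists. Of all genes tested, 19.6% fell and 9.6% rose. In replicate 1 alone 7.56% of all genes fell and 10.7% rose, and in replicate 2 alone 22.2% fell and 5.21% rose. Of 15 proteasome cofactors, shuttles and regulators, 4 fell and 2 rose. In replicate 1 alone 0 of these fell and 1 rose (median -0.012), and in replicate 2 alone 4 fell and 2 rose (median -0.058). *sel-11*, the HRD1 ubiquitin ligase of endoplasmic reticulum quality control, fell by 0.15 (adjusted p = 7.6e-06 from limma), and *aip-1*, an arsenite-inducible proteasome adaptor, fell by 0.14 (adjusted p = 0.0011 from limma). In the opposite direction, the proteasome-bound deubiquitinase *ubh-4* rose by 0.15 (adjusted p = 4.0e-05 from limma), from a mock median of 137 TPM to 151 TPM. It was not lower in K-NAA at any of the 12 time points.

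Of 17 genes listed for the SCF ligase and neddylation, which include the machinery through which TIR1 acts, 8 fell and 1 rose. In replicate 1 alone 2 fell and 2 rose (median -0.019), and in replicate 2 alone 7 fell and 0 rose (median -0.097). The RING protein gene *rbx-2* fell by 0.21 (adjusted p = 7.1e-06 from limma). The NEDD8-conjugating enzyme *ubc-12* fell by 0.13 (adjusted p = 5.1e-04 from limma) and the cullin exchange factor *cand-1* by 0.24 (adjusted p = 0.0023 from limma). Within replicate 1, *cand-1* differed by -0.025 (adjusted p = 0.79 from limma), and within replicate 2 by -0.46. Of 20 ubiquitin genes, E1 and E2 enzymes, 8 fell and 1 rose. In replicate 1 alone 0 fell and 1 rose (median -0.028), and in replicate 2 alone 6 fell and 1 rose (median -0.079). In this list *ubc-7*, an E2 enzyme, fell by 0.14 (adjusted p = 1.2e-05 from limma), and *ubc-20* fell by 0.075 (adjusted p = 0.0017 from limma). The gene *ubq-2*, which encodes ubiquitin fused to a ribosomal protein, rose by 0.18 (adjusted p = 9.2e-05 from limma).

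Of 13 genes of the CDC-48 segregase, which extracts ubiquitinated proteins for the proteasome, and its adaptors, 5 fell and 0 rose. In replicate 1 alone 1 fell and 2 rose (median -0.0041), and in replicate 2 alone 8 fell and 0 rose (median -0.11). *cdc-48.2* ran from 151 to 211 TPM (mock) and from 127 to 191 TPM (K-NAA) and fell by 0.24 (adjusted p = 2.4e-06 from limma), while *ubxn-3* fell by 0.073 and *ufd-1* by 0.067. Of 34 genes for cytosolic ribosomal proteins, another large complex, 7 fell and 11 rose, with a median difference of 0.038. In replicate 1 alone 5 fell and 1 rose (median -0.0045), and in replicate 2 alone 4 fell and 10 rose (median 0.087). Differences between these lists were not tested.

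Over the day, most subunit mRNAs were low at CT9 and CT11 in mock worms and highest at CT15, CT17 and CT21. At CT9 the median member was 0.074 below its mean on the log2 scale and 2 of 33 members were above their own mean. At CT17 the median member was 0.13 above it, with 30 of 33 members above their own mean. At CT17 the mock plates stood at 0.088 and 0.19, so the peak value was larger on replicate 2. At CT21 they stood at 0.15 and 0.0065, so the high value there came from replicate 1. In K-NAA worms the lowest time point was CT7 (-0.11, with 0 of 33 members above their own mean) and the highest CT15 (0.066, with 30 of 33).

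**Figure D4:**
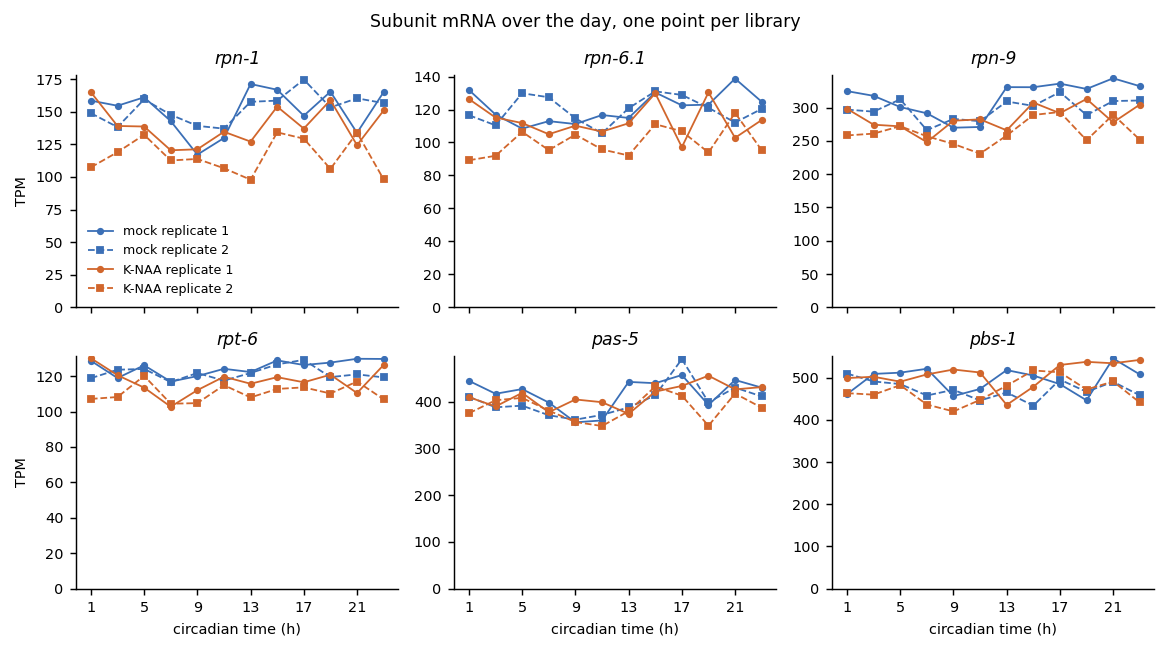
TPM of *rpn-1*, *rpn-6.1*, *rpn-9*, *rpt-6*, *pas-5* and *pbs-1* against circadian time (h), with 1 point per library, mock in blue and K-NAA in orange, replicate 1 solid and replicate 2 dashed, and axes from 0. For *rpn-1* the lowest line is K-NAA replicate 2 except at CT21, down to 97.9 TPM, whereas the 4 lines of *pbs-1* cross between 420 and 546 TPM.

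A 24 h cosine was fitted to ask whether the mRNAs cycled in each condition. In mock worms, 5 of 33 members (15.2%) passed at an adjusted p under 0.30, the threshold the study used for its own rhythm test, against 10.9% of all genes. At 0.05, 0 members passed, against 0.702% of all genes, and 9 members were under an unadjusted 0.05, against 14.1%. The members that passed 0.30 were *rpn-9*, *pas-5*, *pbs-3*, *pas-2* and *pas-6*.

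The fitted range, from trough to peak on the log2 scale, was 0.20 for *rpn-9* (peak at CT20.1, adjusted p = 0.14 from limma), and its mock libraries ran from 266 TPM at CT7 to 344 TPM at CT21. For *pas-5* the range was 0.22 (peak at CT20.1, adjusted p = 0.16 from limma), with its lowest mock library at CT9 (356 TPM) and its highest at CT17 (492 TPM). For *pbs-3* it was 0.17 (CT19.4, adjusted p = 0.22), for *pas-2* 0.20 (CT18.9, adjusted p = 0.25) and for *pas-6* 0.17 (CT20.4, adjusted p = 0.26, all from limma). The largest range was that of *pbs-5*, 0.24 with a peak at CT19.6, which did not pass (adjusted p = 0.32 from limma).

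These calls were fragile. The count was 0 of 33 after median ratio rescaling, where 10.4% of all genes passed, 2 after quantile normalization (10% of all genes) and 9 with a mean-variance trend in limma (11.7% of all genes). It was also 0 without replicate 1, without replicate 2, with a linear trend along the day added to the cosine and at a period of 20 h, but there at most 0.594% of all genes passed, so these counts say little of the members. With the linear trend the fitted range was 0.30 for *pas-5*, 0.23 for *rpn-9*, 0.25 for *pas-2* and 0.24 for *pas-6*, no smaller than without it. For *pbs-3* the range shrank from 0.17 to 0.075. *rpn-9* and *pas-5* kept their calls when any single library was left out, and lost them without CT9 or without CT11.

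In K-NAA worms, 0 of 33 members passed at 0.30, against 0.369% of all genes, and 0 were under an unadjusted 0.05, against 7.13%. The smallest p belonged again to *rpn-9*, with a range of 0.16, a peak at CT19.4 and an adjusted p of 0.71 from limma. It was followed by *rpn-3* (range 0.15, adjusted p = 0.75), *rpn-12* (range 0.11, adjusted p = 0.78) and *rpn-8* (range 0.11, adjusted p = 0.78, all from limma). Then came *pas-5* with a range of 0.13 and *pas-3* with a range of 0.11, both at an adjusted p of 0.80 to 0.81 from limma.

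A call in mock and none in K-NAA is not a difference between them. Tested directly, 0 of 33 members differed in rhythm at an adjusted p under 0.30 from limma, where 0.00724% of all genes did, and 0 were under an unadjusted 0.05, where 5% of all genes were. The smallest unadjusted p values belonged to *pas-3* (0.14), *rpn-7* (0.22) and *pas-2* (0.25), each with an adjusted p of 0.9998 from limma.

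The fitted peaks fell together in both conditions, as a description without a test. In mock, 25 of 33 members (75.8%) had their fitted peak between CT18 and CT21, against 16.3% of all genes. In K-NAA it was 23 of 33 (69.7%), against 15.96% of all genes. The sampled values did not peak there throughout: at CT19 the median member stood at -0.0057 in mock (16 of 33 above their own mean) and at -0.025 in K-NAA (9 of 33). The members share libraries and move together, so these are not 33 separate observations. The fitted ranges were small: 0.028 to 0.24 in mock with a median of 0.12 (0.16 for all genes), and 0.011 to 0.16 in K-NAA with a median of 0.093 (0.13 for all genes).

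**Figure D5:**
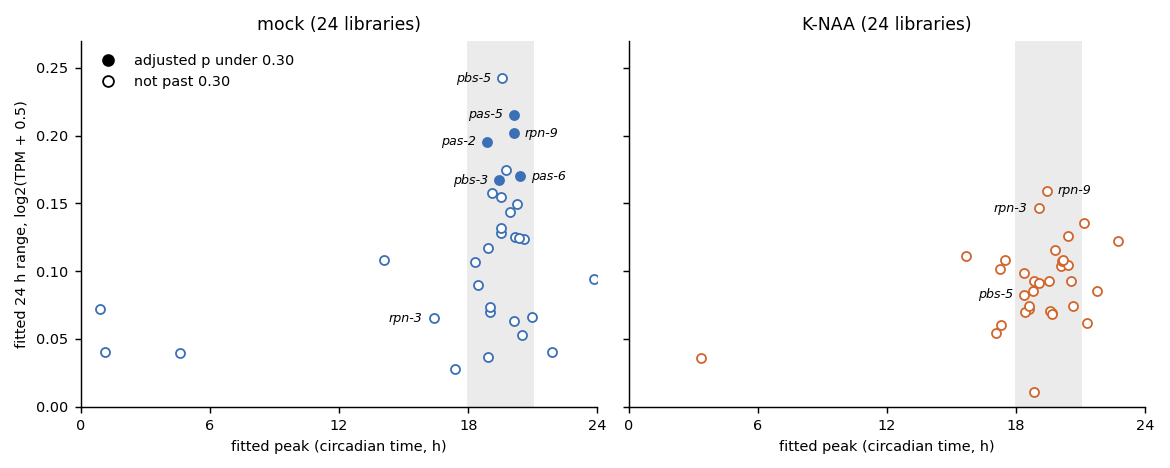
Fitted 24 h range on the log2(TPM + 0.5) scale against fitted peak time (h) for the 33 subunit mRNAs in mock (left) and K-NAA worms (right), filled where the adjusted p was under 0.30, with CT18 to CT21 shaded. The shading holds 25 members in mock and 23 in K-NAA, and the filled points, 5 in mock and 0 in K-NAA, are all inside it.

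Whether the K-NAA effect changed along the day was tested over 4 parts of it. No member passed (0 of 33 at an adjusted p under 0.05 from limma, 0.029% of all genes), and 0 were under an unadjusted 0.05, against 6.36% of all genes. The median member difference was -0.053 at CT1 to CT5, -0.030 at CT7 to CT11, -0.099 at CT13 to CT17 and -0.047 at CT19 to CT23. For all genes the medians were -0.013, -0.045, -0.027 and -0.0092. In these parts 31, 21, 26 and 22 of 33 members had a negative difference, against 54.4, 62.3, 57.1 and 52.1% of all genes. At CT7 to CT11 the members' median was thus no lower than that of all genes. The smallest p belonged to *pbs-4* (unadjusted p = 0.40, adjusted p = 0.9998 from limma), whose differences were 0.0061, 0.0070, -0.11 and -0.066 in that order.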

How the data were processed

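RNA was sequenced from 48 whole-worm libraries (polyA, strand-specific, paired end). The TPM values per gene were deposited by the authors, who ran Salmon on WS284 mRNA sequences. For the step from transcript to gene values, the method is not stated in these sources. In the submitters' processing notes the build is ce10. Each library's TPM adds up to 1000000, so depth and counting error are unknown. Each deposited table also holds 7 columns of the authors' BioCycle results, which were not used. Groups, time points and plate numbers came from the labels.

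Differences were tested with limma 3.58.1 (R 4.3.3) on log2(TPM + 0.5). The 13813 genes whose mean reached 0.25 TPM entered, which include all 33 members. Calls used Benjamini-Hochberg adjustment over all of them, at 0.05 (0.30 for rhythms). Levels used the time point as a factor, and rhythms a 24 h cosine and sine. A fold change on this scale is slightly understated for low genes. The plates are separate cultures. The test between replicates was added after seeing the data. The fits were tested on simulated data.

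All members are given by mean. Those described with values are the 3 highest and lowest, the catalytic β subunits, *rpn-6.1*, *rpn-6.2*, *rpn-10*, *rpn-11*, the 8 with the smallest p for K-NAA, those with the smallest p in the other fits, the 3 most and least variable, and up to 3 genes of each other list. Other members named were chosen after their values were seen. Members and lists were chosen with earlier results of these data known. Of 19885 names, 19523 were matched to the Ensembl annotation (WBcel235) that gave the positions. Sequences are not analysed here.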

Additional observations from a re-analysis of the deposited data

Results flagged for a closer look

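The effect of K-NAA differed between the replicate numbers for 4 subunit mRNAs, by a test of that difference (limma, adjusted p under 0.05 over all genes) that was chosen after the data had been seen. In each the effect was more negative in replicate 2 than in replicate 1. For *rpn-1* the effects were -0.12 and -0.40, a difference of -0.28 (adjusted p = 0.012). For *rpt-3* they were -0.030 and -0.18, a difference of -0.15 (adjusted p = 0.018). For *rpn-3* they were 0.076 and -0.098, a difference of -0.17 (adjusted p = 0.030). For *rpn-5* they were 0.044 and -0.065, a difference of -0.11 (adjusted p = 0.049). These 12.1% of the members stand beside 15.5% of all genes. After median ratio rescaling 0 members were called. The libraries of mock replicate 2 had a median rescaling factor of 1.05, against 0.981 to 0.986 in the other sets of libraries, and the part of this in the result was not tested.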

How the results depend on the processing

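For the K-NAA effect on level (13 members lower), 68 of 71 alternatives gave counts within 1.5 times. The count was 6 lower and 3 higher after median ratio rescaling, 8 lower and 1 higher after quantile normalization, 15 without replicate 1 and 2 without replicate 2. It was 11 to 16 without single libraries and 10 to 14 without single time points. The calls for *rpn-1*, *rpn-6.1*, *pas-7* and *rpt-3* were lost only without replicate 2, and *rpn-9* and *rpt-6* kept theirs under every alternative. For the 24 h rhythm in mock (5 members) the count was 0 after median ratio rescaling, 2 after quantile normalization, 9 with a mean-variance trend, 0 with a linear drift, 0 at a period of 20 h, 0 without replicate 1 or replicate 2, 2 to 9 without single libraries and 0 to 14 without single time points. For replicate 2 against replicate 1 in mock (0 members) it was 1 with a pseudocount of 0.1 or of 1, 2 without the filter, 1 with a mean of at least 1 TPM, 12 after median ratio rescaling, 3 with a mean-variance trend, and 0 to 1 without single libraries or time points. For the difference of the K-NAA effect between replicates (4 members) it was 0 after median ratio rescaling, 2 to 7 without single libraries and 1 to 6 without single time points. For the rhythm in mock, the count of 14 without CT19 stood beside 12.8% of all genes. The counts of 0 without CT9 and without CT11 stood beside 7.46% and 5.4% of all genes. The cause of the shifts in these counts was not tested. The other counts (rhythm in K-NAA, difference in rhythm, part of the day, and replicates in K-NAA) were 0 under every alternative.

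With the replicate block, 14 members were lower in K-NAA (20.2% of all genes) and 8 passed for the rhythm in mock (13.7% of all genes). Over 12 time points, the differences between plates in mock and in K-NAA correlated at -0.066 to 0.18 across genes, over 0.1 at 1 time point. Each correlation rests on single plates, so low values cannot exclude that the replicate numbers pair the samples. Depth is not in the values, so no limit from counting can be given.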
